A study of Mus musculus with 4 samples.

Results

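The set comprised 7 genes of the JAK-STAT pathway, the transcription factors Stat2, Stat3, Stat4 and Stat6 and the feedback inhibitors Socs1, Socs2 and Socs3, and it was chosen by gene name from the RefSeq table of the mouse build GRCm38.p6, the assembly that mm10 names. Each gene was taken with 5 kb on either side. Of the 25374149 cytosine positions in the deposited table, 4633 fell in these bounds, and 623 of them had at least 5 reads in all 4 libraries. These positions gave 45 of the 314517 windows of 1 kb that were tested across the genome, a window needing 5 such positions.

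Methylation of cytosines in CpG was read by whole-genome bisulfite sequencing of sorted spleen CD4+ T cells from NOD mice, an inbred strain with spontaneous autoimmune diabetes. Mice were given either a combination of the proteins OX40L and Jagged-1 or the PBS vehicle once weekly for 3 weeks starting at 6 weeks of age, and cells were collected 1 week after the last dose, at 10 weeks. OX40L binds the T cell costimulatory receptor OX40, and Jagged-1 binds Notch receptors. The 4 groups were OX40L-JAG1 Treg, OX40L-JAG1 Teff, PBS Treg and PBS Teff, with 1 library each. Treg stands for the CD4+CD25hi gate and Teff for the CD4+CD25- gate, so the gate rests on CD25, the product of Il2ra, and not on Foxp3. The sources used here do not state the number of animals or their sex. With 1 library per group, every p-value compares a pair of libraries and gives no information on the spread between animals.

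STAT proteins wait in the cytoplasm until a cytokine receptor activates its Janus kinases (JAK), which phosphorylate them. The phosphorylated STAT then pairs, enters the nucleus and binds DNA at short palindromic elements. SOCS genes are among the targets of STATs, and their proteins bind the receptor or the kinase and shut the signal down, which closes a feedback loop. In CD4+ T cells, STAT4 carries the interleukin-12 signal towards the T helper 1 (Th1) fate, STAT6 the interleukin-4 signal towards the Th2 fate, and STAT3 the signals of interleukin-6, interleukin-21 and interleukin-23. STAT2 acts with IRF9 downstream of type I interferon. CpG methylation is usually low at active promoters and enhancers and high over most of the remaining genome.

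The promoters of the set differ in how many CpG they offer to methylation, and 4 of them are printed. They contrast the CpG-poor starts of Stat4, the gene with the called windows, with the CpG-rich starts of Stat2 and Socs1. The promoter table (RefSeq, GRCm38.p6) held 7 promoters of 300 bases, 250 before and 50 after the start, for 6 of the 7 genes. Sequences run 5′ to 3′ on the strand of the gene, and capitals mark each CG. The upstream start of Stat4 (chr1:51986898-51987197, plus strand) has 2 CpG and the internal start of Stat4 (chr1:52007990-52008289, plus strand) has 4, against 22 at Stat2 (chr10:128270248-128270547, plus strand) and 18 at Socs1 (chr16:10785487-10785786, minus strand).
Stat4 upstream start: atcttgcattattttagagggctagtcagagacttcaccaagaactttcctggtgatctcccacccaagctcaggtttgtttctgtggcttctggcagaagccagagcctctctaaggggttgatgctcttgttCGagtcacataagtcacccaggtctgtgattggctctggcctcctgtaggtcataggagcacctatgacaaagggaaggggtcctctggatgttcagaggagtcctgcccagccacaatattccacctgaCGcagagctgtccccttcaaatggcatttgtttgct
Stat4 internal start: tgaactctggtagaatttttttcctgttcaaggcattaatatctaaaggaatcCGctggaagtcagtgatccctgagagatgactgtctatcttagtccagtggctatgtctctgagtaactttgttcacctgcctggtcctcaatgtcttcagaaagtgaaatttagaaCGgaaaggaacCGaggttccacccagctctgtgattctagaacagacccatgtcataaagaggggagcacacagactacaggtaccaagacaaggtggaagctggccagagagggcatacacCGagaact
Stat2: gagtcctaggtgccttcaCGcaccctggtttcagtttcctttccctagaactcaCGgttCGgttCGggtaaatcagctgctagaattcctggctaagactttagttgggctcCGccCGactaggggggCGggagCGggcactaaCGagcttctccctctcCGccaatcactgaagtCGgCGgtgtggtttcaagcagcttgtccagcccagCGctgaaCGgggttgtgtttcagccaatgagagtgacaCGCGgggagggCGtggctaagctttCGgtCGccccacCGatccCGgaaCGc
Socs1: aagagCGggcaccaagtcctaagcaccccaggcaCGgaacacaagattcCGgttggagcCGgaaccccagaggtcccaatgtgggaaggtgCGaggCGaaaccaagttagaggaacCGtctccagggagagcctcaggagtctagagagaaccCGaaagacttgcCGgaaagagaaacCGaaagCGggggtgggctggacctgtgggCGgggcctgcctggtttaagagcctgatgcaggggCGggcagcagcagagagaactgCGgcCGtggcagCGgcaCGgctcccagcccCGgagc

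Over all 32851 promoters of this length the median was 7 CpG, with quartiles of 3 and 20. Stat3 has 15, Stat6 has 8 and Socs3 has 31. Both Stat4 promoters therefore lie below the median, and Socs3 and Stat2 lie above the upper quartile.

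The same promoters were searched on both strands for letters that STAT complexes are known to bind. The motif GAAANNGAAA, the core of the interferon-stimulated response element bound by complexes that hold STAT2 and IRF9, occurs in 3.44% of all promoters. It occurs in Socs1, as gaaagagaaa at -83 and gaaaccgaaa at -77 from the start, so these matches overlap and the second contains a CpG. It also occurs as gaaagtgaaa at -97 from the internal start of Stat4 and, on the opposite strand, as tttcagtttc at -222 in Stat2. The motif TTCNNNGAA, the form of the gamma-activated site that most STAT dimers bind, occurs in 8.3% of all promoters and here in Socs3, as ttcttagaa at -154. The form with a wider spacer, TTCNNNNGAA, which STAT6 is known to prefer, occurs in 6.95% of all promoters and here in Stat2, as ttccctagaa at -210, next to its interferon element. These are matches of letters, and binding was not measured.

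Most of the measured sequence at the set was heavily methylated, as it was in the genome. Of the 45 windows, 33 stood at 80% or more in all 4 libraries (73.3%), against 65.1% of all tested windows. A level is the number of methylated reads over all reads, summed over the positions of a window. Stat4 supplied 19 windows, Socs2 8, Stat3 7, Stat2 6, Stat6 4 and Socs3 1. Socs1 supplied none, since only 2 of its 239 listed positions were read in all 4 libraries. The level over all shared positions of the genome was 82.2% in OX40L-JAG1 Treg, 81.6% in OX40L-JAG1 Teff, 84.9% in PBS Treg and 85.2% in PBS Teff, so both treated libraries were lower. Over all tested windows the median difference between OX40L-JAG1 and PBS was -2.82 points in Teff and -2.14 points in Treg, and over the 45 windows it was -2.13 and -1.81 points. The median number of reads in a window of the set was 72 in OX40L-JAG1 Treg, 79 in OX40L-JAG1 Teff, 78 in PBS Treg and 111 in PBS Teff. Mitochondrial cytosines, a gauge of incomplete conversion, were methylated in 0.619% to 0.712% of reads. The Treg markers Foxp3, Ikzf2 and Il2ra each held a window lower in Treg than in Teff under both treatments. None of the 20 windows of the B cell list (Cd79a, Pax5, Ms4a1) or of the 7 windows of the CD8 T and NK cell list (Cd8a, Cd8b1, Ncr1, Gzmb) was called in any comparison. Of the myeloid list (Lyz2, Csf1r, Itgam, Spi1), only Spi1 held called windows, which were higher in Treg under both treatments. None of the 3 windows of Csf1r or the 11 of Itgam was called, and Lyz2 had no tested window. Pooled over each gene with its flanks, Treg minus Teff in PBS mice was -2.01 points for Lyz2 and -2.56 for Csf1r. It was 0.138 points for Itgam and 9.39 for Spi1.

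**Figure D1:**
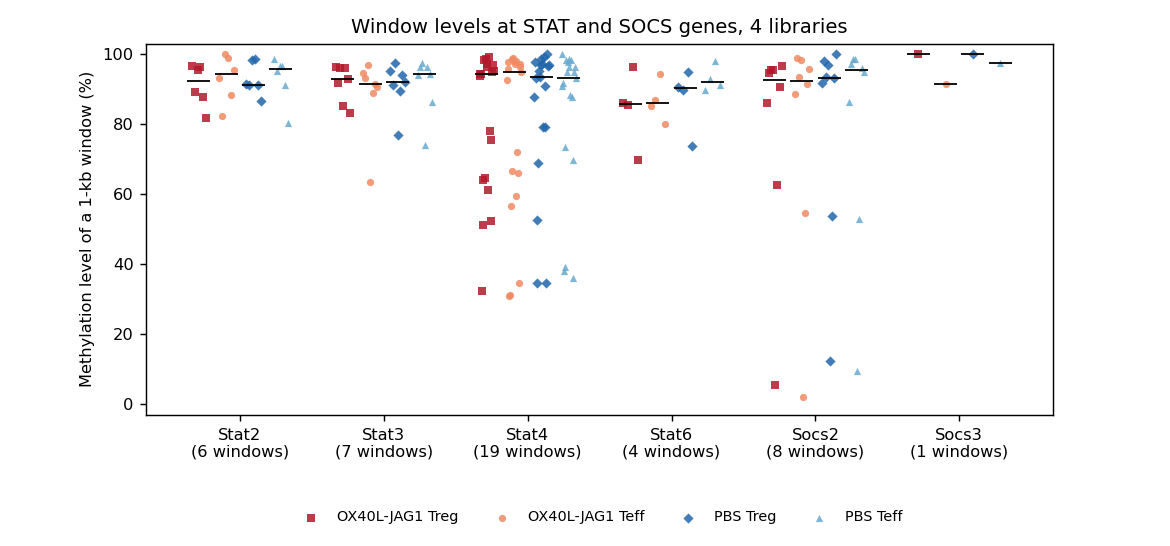
Methylation level in percent of each of the 45 windows of 1 kb, by gene and library, with the median of each column as a black bar. Most windows lie above 80%, Stat4 holds a spread of lower windows in every library, and 1 Socs2 window lies between 2.25% and 12.3%.

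The windows of the set called for treatment were all in Stat4, and all were lower after OX40L-JAG1. A window was called at a Benjamini-Hochberg adjusted p under 0.05 over all windows of the genome, by Fisher's exact test of methylated against unmethylated reads, where the levels also differed by 20 percentage points or more. In Teff, 2 of the 45 windows were called lower in OX40L-JAG1 than in PBS (4.44%), against 0.469% of all windows, and 0 were called higher, against 0.0881%. In Treg, 1 of 45 was called lower (2.22%), against 0.0811% of all windows, and 0 higher, against 0.0194%. The called windows lie in the gene body, and 1 window was called in both cell types, as were 51 of all windows (0.0162%). The counts are small, and each rests on single libraries.

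The window called in both cell types lies at chromosome 1, 52041001 to 52042000, centred 54.4 kb downstream of the upstream start of Stat4 (gene 20849, chromosome 1, 51987106 to 52107189) and 33.3 kb downstream of its internal start. Its level was 64.7% in OX40L-JAG1 Treg, 66.7% in OX40L-JAG1 Teff, 93.6% in PBS Treg and 95% in PBS Teff. These rest on 119, 135, 140 and 220 reads, in the same order, summed over 10 positions. Both treated libraries were low and both PBS libraries were high, and the 95% Wilson intervals of the treated libraries, 55.8% to 72.7% and 58.4% to 74.1%, did not reach those of the PBS libraries, 88.2% to 96.6% and 91.3% to 97.2%. The difference was -28.3 points in Teff, 95% Newcombe interval -36.9 to -20.1 (Fisher's exact test, adjusted p = 4.83e-09). In Treg it was -28.9 points, interval -38.3 to -19.2 (Fisher's exact test, adjusted p = 3.28e-05). Both calls held after differences were centred on the median of the genome, and both were lost when read numbers were divided by 3 (adjusted p = 0.244 in Teff and 1 in Treg, Fisher's exact test). The Treg call was also lost with the higher-coordinate cytosine of each CpG pair alone (adjusted p = 0.0571, Fisher's exact test). A level in sorted cells does not tell a change within cells from a change in the mix of cells inside the gate, and these cannot be told apart here. Intervals cover counting error only, and a read is counted at each position it covers. The cell types lay close together under either treatment. Treg minus Teff was -1.96 points in OX40L-JAG1 mice, interval -13.5 to 9.58, and -1.43 points in PBS mice, interval -7.2 to 3.36. The interaction, the Treg minus the Teff treatment difference, was -0.53 points, with an adjusted p of 0.993 by the Wald test.

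Single positions in this window moved together. All 10 positions were lower in OX40L-JAG1 Teff than in PBS Teff, with differences from -68.2 to -8.33 points. In Treg, 9 of 10 were lower in OX40L-JAG1, and 1 was equal at 100%. The difference was concentrated in the positions at the upstream edge of the window. Positions 52041030, 52041034, 52041038 and 52041043 each had 5 methylated of 12 reads in OX40L-JAG1 Treg, which is 41.7%. In OX40L-JAG1 Teff they stood at 63.6%, 27.3%, 27.3% and 41.7%, against 84.6%, 92.3%, 83.3% and 83.3% in PBS Treg and 95.7%, 95.5%, 91.3% and 91.3% in PBS Teff. These 4 positions lie within 14 bases and have nearly equal read numbers, so they are close to a single measurement on about 12 reads in each treated library. They are the higher-coordinate cytosines of their CpG pairs, and only OX40L-JAG1 Teff had the lower-coordinate partners listed. Those partners were methylated in 6 of 7, 5 of 7, 5 of 7 and 4 of 7 reads, each above its higher-coordinate position in that library. Position 52041508, at the centre of the window, was 100%, 86.2%, 100% and 96.4% methylated in OX40L-JAG1 Treg, OX40L-JAG1 Teff, PBS Treg and PBS Teff. In Treg the libraries were thus equal at this position, and in Teff the treated one was lower.

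**Figure D2:**
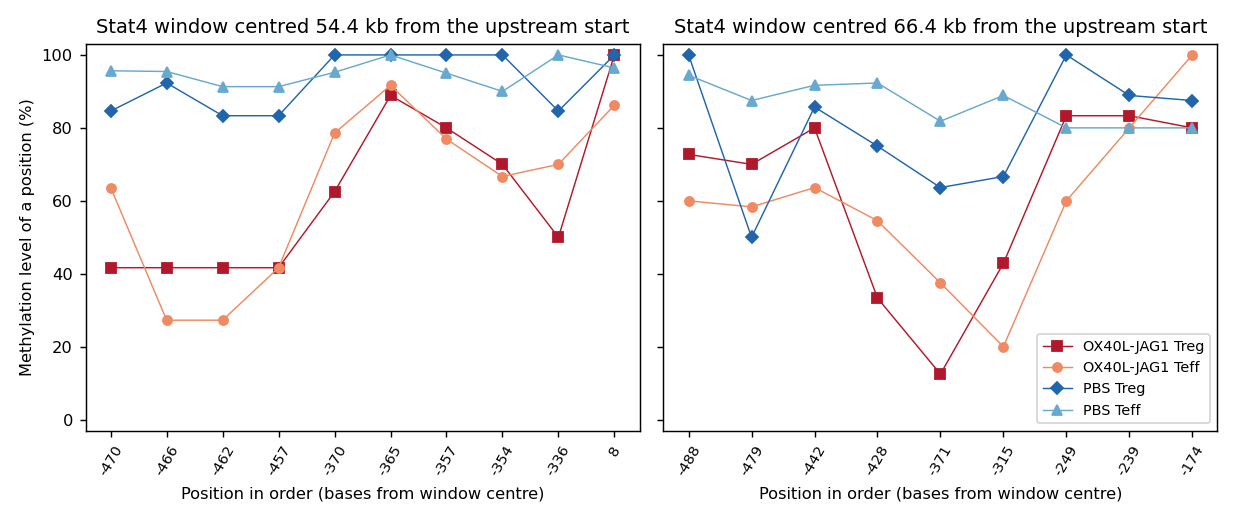
Methylation level in percent of each position read in all 4 libraries, in the Stat4 window called in both cell types (left) and in the window called in Teff (right), with positions in order and labelled by their distance in bases from the window centre. In the left panel both OX40L-JAG1 libraries lie below both PBS libraries at all positions but the last, and in the right panel the gap narrows over the 3 positions furthest downstream.

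Upstream of the window at 52041001, the treated libraries also stood lower over each library's own positions. Few positions there were read in all 4 libraries, so these levels compare unlike positions in part. In the window at 52040001, 53.4 kb from the upstream start, the positions that each library had read gave 25% in OX40L-JAG1 Treg, 23.6% in OX40L-JAG1 Teff, 65.4% in PBS Treg and 77.8% in PBS Teff, from 32, 72, 52 and 45 reads. Positions 52040057, 52040063, 52040108 and 52040134 were fully methylated in PBS Treg, and neither treated library had read them. Positions 52040767 and 52040783 were methylated in 2 of 9 reads each in OX40L-JAG1 Teff, against 3 of 7 and 2 of 7 in PBS Treg. In this window, 2 positions were read in all 4 libraries. Position 52040902 stood at 16.7%, 22.2%, 28.6% and 50%, and position 52040924 at 20%, 20%, 42.9% and 61.5%, in the order OX40L-JAG1 Treg, OX40L-JAG1 Teff, PBS Treg and PBS Teff. Both treated libraries were below both PBS libraries at each. At 52039001 the own positions of each library gave 24.4% in OX40L-JAG1 Teff, 53.1% in PBS Treg and 61.4% in PBS Teff, and OX40L-JAG1 Treg had no listed position. Positions 52039646, 52039651 and 52039775 stood at 33.3%, 16.7% and 0% in OX40L-JAG1 Teff, against 83.3%, 83.3% and 22.2% in PBS Teff. Position 52039372 was methylated in 2 of 7 reads in OX40L-JAG1 Teff, against 0 of 6 in PBS Treg, so the treated library was higher there. One window further out on each side, at 52038001 and 52042001, the 4 libraries stood between 91.7% and 100%. The windows at 52039001 and 52040001 were thus below these flanks in every library that covered them, whereas at 52041001 the PBS libraries stood within the range of the flanks. Positions differ between libraries here, and the stretch was chosen after its values were seen, so no test is given.

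The other window called in Teff lies at 52053001 to 52054000, centred 66.4 kb from the upstream start. It stood at 61.1% in OX40L-JAG1 Treg, 59.5% in OX40L-JAG1 Teff, 79.2% in PBS Treg and 88.3% in PBS Teff, from 72, 79, 77 and 94 reads over 9 positions. Over these positions both treated libraries were below both PBS libraries. The difference in Teff was -28.8 points, interval -40.9 to -15.9 (Fisher's exact test, adjusted p = 0.0026). This call was lost when read numbers were divided by 3 (Fisher's exact test, adjusted p = 1), and with at least 10 reads per position the window could not be tested. In Treg it was -18.1 points, interval -31.9 to -3.43 (Fisher's exact test, adjusted p = 0.384), which missed both thresholds. The interaction was 10.7 points with an adjusted p of 0.981 by the Wald test, so the cell types were not shown to differ in the response. Lower positions numbered 7 of 9 in Teff and 8 of 9 in Treg. The lowest values fell in the middle of the stretch. Position 52053129 was methylated in 1 of 8 reads in OX40L-JAG1 Treg, 3 of 8 in OX40L-JAG1 Teff, 7 of 11 in PBS Treg and 9 of 11 in PBS Teff. All 9 positions are the higher-coordinate cytosine of their CpG pair. Of their lower-coordinate partners, 3 were read in both Treg libraries, and there OX40L-JAG1 Treg was the higher one. Position 52053011 was methylated in 7 of 7 reads in OX40L-JAG1 Treg, against 5 of 6 in PBS Treg, position 52053020 in 7 of 7, against 3 of 5, and position 52053057 in 7 of 8, against 2 of 5. Over the 13 positions read in both Treg libraries the difference was -9.65 points (Fisher's exact test, adjusted p = 0.812).

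Some further windows of Stat4 pointed the same way without passing the test. At 52077001, 90.4 kb from the upstream start, the levels were 78.1% in OX40L-JAG1 Treg, 72.0% in OX40L-JAG1 Teff, 91.0% in PBS Treg and 87.8% in PBS Teff, a difference of -15.8 points in Teff (Fisher's exact test, adjusted p = 0.218) and -12.9 points in Treg (adjusted p 0.492). Together with the windows at 52041001 and 52053001 it made up the 3 windows of the set that were at least 10 points lower after treatment in both cell types, as were 2.48% of all windows. Of the windows not called, the one with the largest treatment difference in Teff was at 52014001, 27.4 kb from the upstream start. It stood at 64.1% in OX40L-JAG1 Treg, 56.8% in OX40L-JAG1 Teff, 69.0% in PBS Treg and 73.5% in PBS Teff, and the Teff difference of -16.7 points did not pass (Fisher's exact test, adjusted p = 0.246). The window at 52080001 went the other way in Treg, with 52.5% in OX40L-JAG1 Treg, against 34.7% in PBS Treg. That difference of 17.8 points did not pass either (Fisher's exact test, adjusted p = 0.704), and in Teff the difference there was -1.38 points. Of the 19 Stat4 windows, 10 (52.6%) lay below 0 in both treatment comparisons, against 52.1% of all windows. The called differences thus covered parts of Stat4 and not its whole length. At 11 windows all 4 libraries stood at 80% or more, and at 52072001 the levels were 99.2%, 98.0%, 99.3% and 98.2% in OX40L-JAG1 Treg, OX40L-JAG1 Teff, PBS Treg and PBS Teff. Pooled over its 298 shared positions, the Stat4 locus stood at 84.4%, 82.9%, 88.4% and 87.2% in the same order. The locus differences of -4.26 points in Teff and -4.04 points in Treg lay at the percentiles 31.2 and 23.7 of all loci of protein-coding genes, whose medians were -2.74 and -1.94.

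**Figure D3:**
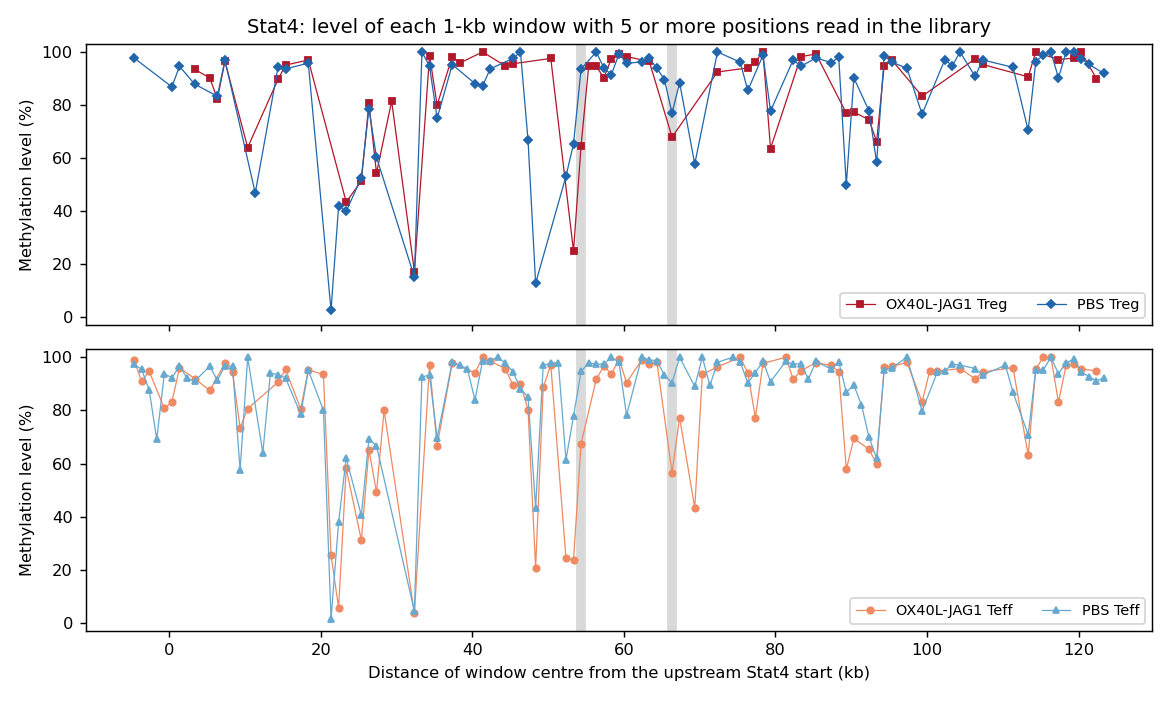
Methylation level in percent of every 1-kb window of Stat4 in which a library had at least 5 positions, against the distance of the window centre from the upstream start in kb, for Treg (upper panel) and Teff (lower panel). Grey bands mark the windows called in Teff, centred at 54.4 and 66.4 kb, and the positions behind a point can differ between libraries.

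A window between 52053001 and 52077001 showed how much rests on which positions are shared. At 52056001, 69.4 kb from the upstream start, too few positions were read in all 4 libraries for a test. Over the 8 positions read in both Teff libraries the level was 44.6% in OX40L-JAG1 Teff, against 85.3% in PBS Teff, which is -40.7 points apart (interval -54.5 to -24.5). Over the 10 positions read in both PBS libraries it was 60% in PBS Treg, against 89% in PBS Teff, which is -29.0 points apart (interval -41.6 to -15.9). Both passed Fisher's exact test over all windows of each pair (adjusted p = 0.000786 and adjusted p = 0.00722). These comparisons share the PBS Teff library, which was the high one in both.

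The starts of Stat4 differed from each other. At the upstream start the promoter was methylated wherever it was read, with 90.0% in OX40L-JAG1 Treg, 70.0% in OX40L-JAG1 Teff, 100% in PBS Treg and 100% in PBS Teff, from 10, 10, 7 and 18 reads. Around the internal start, within 500 bases on either side, PBS Treg stood at 4.08% of 49 reads and PBS Teff at 3.70% of 27 reads. OX40L-JAG1 Teff stood at 36.1% of 36 reads there, but its 13 methylated reads all came from the positions at -197 and -196, which the other libraries did not read. At the position it shared with PBS Teff, at 56 from the start, both had 0 methylated reads, of 5 in OX40L-JAG1 Teff and of 8 in PBS Teff. OX40L-JAG1 Treg had no listed position in this stretch, so a treatment difference at the internal start was not measurable. Downstream of it followed windows of intermediate methylation in all libraries, with 32.5% in OX40L-JAG1 Treg, 30.9% in OX40L-JAG1 Teff, 34.5% in PBS Treg and 38.2% in PBS Teff at 52010001. At 52012001, the Stat4 window with the largest cell type difference in PBS mice, the levels were 51.4%, 31.1%, 52.6% and 39.1% in the same order of libraries. Treg was above Teff there by 20.2 points in OX40L-JAG1 mice and 13.5 points in PBS mice, each at an adjusted p of 1 in Fisher's exact test, with at most 69 reads a library.

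**Figure D4:**
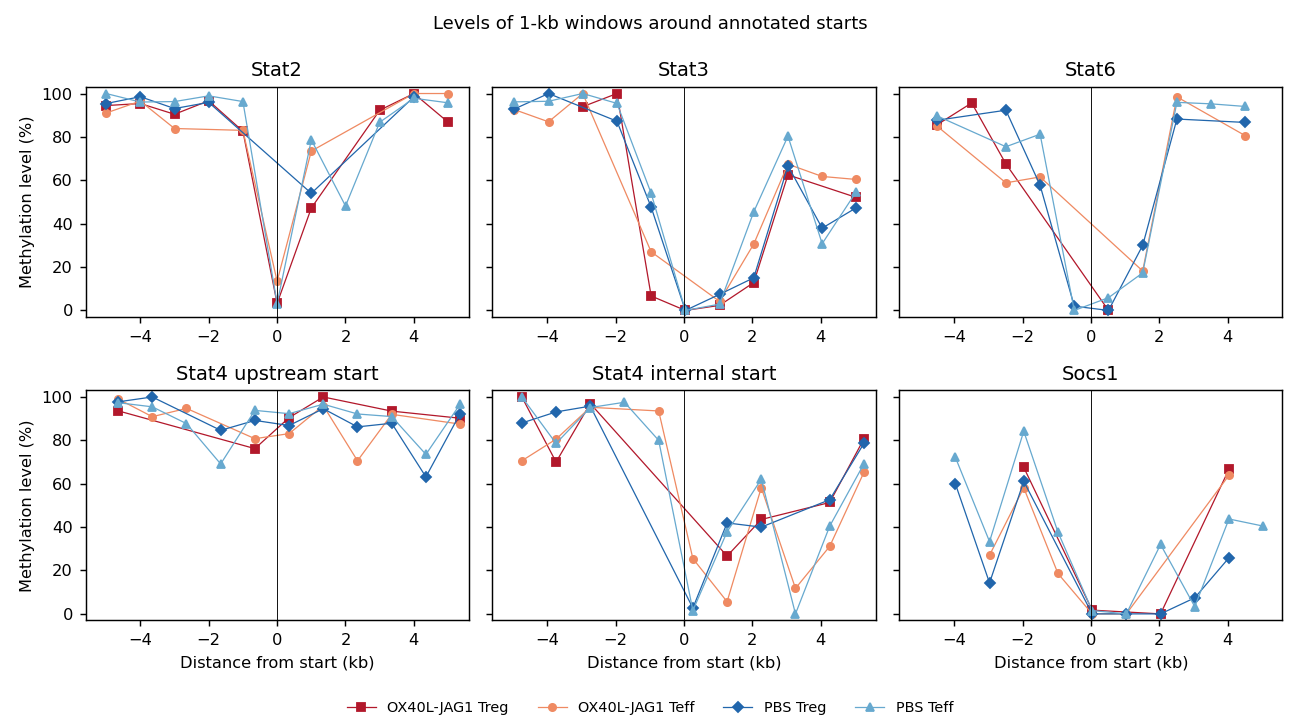
Methylation level in percent of 1-kb windows with at least 3 positions in a library, against the distance of the window centre from the annotated start in kb, for Stat2, Stat3, Stat6, both starts of Stat4 and Socs1. Levels are low at the starts of Stat2, Stat3, Stat6 and Socs1 and stay high at the upstream start of Stat4.

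Stat2, the interferon-specific STAT, had little methylation at its start and methylated flanks. Its promoter was methylated in 0.775% of 129 reads in OX40L-JAG1 Treg and in 0 of 70 reads in PBS Teff (Wilson upper bound 5.2%), and 10 or fewer reads were listed in the other libraries. Within 500 bases of the start, OX40L-JAG1 Teff stood at 13.5% of 52 reads (Wilson interval 6.68% to 25.3%). There OX40L-JAG1 Treg stood at 3.23% of 217 reads, PBS Treg at 0% of 11 and PBS Teff at 3.14% of 159. No position there was read in all 4 libraries. In the window at chromosome 10, 128267001 to 128268000, upstream of the gene, the level was 89.2% in OX40L-JAG1 Treg, 82.2% in OX40L-JAG1 Teff, 91.1% in PBS Treg and 95.2% in PBS Teff, from 102, 135, 79 and 210 reads. OX40L-JAG1 Teff was the lowest and PBS Teff the highest of the libraries. The Teff difference was -13.0 points, interval -20.6 to -6.32 (Fisher's exact test, adjusted p = 0.0113), so it passed on p and fell short of 20 points. In Treg the difference was -1.92 points, interval -10.7 to 7.61, and the interaction of 11.1 points had an adjusted p of 0.981 by the Wald test. The largest treatment difference in Teff was at 128296001, downstream of Stat2 and within Il23a, which encodes a subunit of interleukin-23. It stood at 81.8% in OX40L-JAG1 Treg, 95.3% in OX40L-JAG1 Teff, 86.5% in PBS Treg and 80.4% in PBS Teff, and the 14.9 points between the Teff libraries, with the treated one higher, did not pass (Fisher's exact test, adjusted p = 0.318). The largest cell type difference in PBS mice was -7.31 points at 128265001, with 91.4% in PBS Treg, against 98.7% in PBS Teff (adjusted p 0.915).

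Stat3 was close to equal in the 4 libraries over most of its measured length. Its 7 windows had a median difference of -2.82 points in Teff and 0.49 points in Treg between OX40L-JAG1 and PBS. At 100918001 (chromosome 11), in the gene body, the level was 85.1% in OX40L-JAG1 Treg, 63.5% in OX40L-JAG1 Teff, 77.0% in PBS Treg and 74.1% in PBS Teff, from 47, 63, 61 and 85 reads. This was the largest Teff treatment difference of the gene, at -10.6 points (Fisher's exact test, adjusted p = 0.600). Treg lay 21.6 points above Teff in OX40L-JAG1 mice, with an adjusted p of 0.751, and 2.93 points above it in PBS mice. The largest cell type difference in PBS mice was at 100925001, with 89.5% in PBS Treg, against 96.4% in PBS Teff, which is -6.89 points apart (Fisher's exact test, adjusted p = 1). The window at 100884001, in the downstream flank, lies in Stat5a and stood between 94.1% and 96.4%. The start was free of methylation, with 0 methylated of 34, 10, 32 and 110 reads at 100939001 in OX40L-JAG1 Treg, OX40L-JAG1 Teff, PBS Treg and PBS Teff. A count of 0 in 110 reads allows a level of up to 2.73%, and in 10 reads of up to 30%, taking 3 reads as the limit.

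Stat6, the transducer of interleukin-4, held the largest cell type difference of the set in PBS mice. The window at chromosome 10, 127657001 to 127658000, centred 14.5 kb from the start and near the downstream end of the gene, stood at 69.8% in OX40L-JAG1 Treg, 80% in OX40L-JAG1 Teff, 73.9% in PBS Treg and 91.3% in PBS Teff, from 106, 155, 138 and 126 reads over 7 positions. PBS Teff was the high library. Treg minus Teff was -17.4 points in PBS mice, interval -26.1 to -8.28 (Fisher's exact test, adjusted p = 0.063, while with windows moved by 500 bases an overlapping window was called lower in PBS Treg), and -10.2 points in OX40L-JAG1 mice, interval -21.0 to 0.374 (adjusted p = 1). The treatment difference in Teff, which shares the PBS Teff library, was -11.3 points with an adjusted p of 0.148. Among the positions of the window, 127657771 had the largest difference between the PBS libraries. That position was methylated in 4 of 28 reads in OX40L-JAG1 Treg (14.3%), 9 of 33 in OX40L-JAG1 Teff (27.3%), 6 of 31 in PBS Treg (19.4%) and 20 of 30 in PBS Teff (66.7%). By contrast, position 127657804, 33 bases away, stood at 82.4%, 90.0%, 85.7% and 100% in the same order. The adjusted p of 127657771 over all single positions was 1 for PBS Treg against PBS Teff.

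The Stat6 window that follows, at 127658001, was read too sparsely in the treated libraries for a comparison of all 4. Over the 6 positions read in both PBS libraries it stood at 3.77% in PBS Treg, against 40% in PBS Teff, from 53 and 40 reads. This difference of -36.2 points, interval -51.9 to -19.9, passed over all windows read in that pair (Fisher's exact test, adjusted p = 0.0102). The 6 positions run from 127658199 to 127658334 and do not stand for the whole window. Further downstream in it, position 127658479 was methylated in 5 of 5 reads in both OX40L-JAG1 Teff and PBS Treg. In PBS Teff, position 127658569 was methylated in 5 of 5 reads and position 127658730 in 4 of 6. At position 127658199 the methylated reads were 0 of 11 in OX40L-JAG1 Treg, 3 of 7 in OX40L-JAG1 Teff, 2 of 13 in PBS Treg and 5 of 9 in PBS Teff, so each Treg library was below its Teff library. At 127658217 they were 2 of 10, 3 of 6, 0 of 10 and 3 of 6 in the same order, with the same ranking within each treatment. The Stat6 locus as a whole, over 43 shared positions, stood at 83.2%, 86.3%, 86.0% and 92.5% in that order. Between OX40L-JAG1 and PBS the locus difference was -6.18 points in Teff, interval -8.88 to -3.58, at percentile 13.6 of all protein-coding loci, and -2.72 points in Treg, interval -6.27 to 0.796. The Teff value is further from 0 than that of the Stat4 locus, although no Stat6 window was called for treatment. The difference of -6.50 points between PBS Treg and PBS Teff lay at percentile 3.53 of all protein-coding loci, and that of -3.04 points between the OX40L-JAG1 libraries at percentile 10.7. At its start, Stat6 was methylated in 0 of 50 reads in OX40L-JAG1 Treg, 0.806% of 124 reads in PBS Treg and 0 of 39 reads in PBS Teff within 500 bases, with Wilson upper bounds of 7.13%, 4.43% and 8.97%, and OX40L-JAG1 Teff had no listed position there.

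The SOCS genes showed unmethylated stretches and no called window. Socs1, the inhibitor of JAK kinases that limits interferon signalling, lies at chromosome 16, 10783808 to 10785536, and could be described from each library's own positions only. Its window at 10784001, within the gene, had 0 methylated of 240 reads in OX40L-JAG1 Teff, 0 of 144 in PBS Treg and 0 of 82 in PBS Teff, and no listed position in OX40L-JAG1 Treg. These zeros allow levels of up to 1.25%, 2.08% and 3.66%. The window at 10785001, which holds the start and the printed promoter, stood at 1.72% of 116 reads in OX40L-JAG1 Treg, 0 of 67 in OX40L-JAG1 Teff, 0 of 15 in PBS Treg and 1.54% of 195 in PBS Teff. The gene was thus nearly free of methylation in these windows in the libraries that covered them. On the upstream side methylation appeared again, and 10787001 stood at 67.6% in OX40L-JAG1 Treg, 58.1% in OX40L-JAG1 Teff, 61.1% in PBS Treg and 84.2% in PBS Teff.

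Socs2, a member of the family known for limiting growth hormone signalling, supplied 8 windows. At chromosome 10, 95395001 to 95396000, the level was 5.56% in OX40L-JAG1 Treg, 2.25% in OX40L-JAG1 Teff, 12.3% in PBS Treg and 9.43% in PBS Teff, from 72, 89, 57 and 106 reads. Both treated libraries were below both PBS libraries, and this was the only window of the set under 20% in all 4. The differences of -7.19 points in Teff, the largest of the gene, and -6.73 points in Treg did not pass (Fisher's exact test, adjusted p = 0.365 and 0.805). The next window, at 95396001, stood at 62.8%, 54.5%, 53.8% and 52.9% in OX40L-JAG1 Treg, OX40L-JAG1 Teff, PBS Treg and PBS Teff. The largest cell type difference of Socs2 in PBS mice was 5.29 points at 95384001, with 91.8% in PBS Treg, against 86.5% in PBS Teff (adjusted p 1). A further unmethylated stretch lay at the high-coordinate end of the gene, where 95417001 stood at 5.38%, 2.86%, 0% and 1.96% in the order above, from 130, 70, 10 and 51 reads.

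Socs3, the inhibitor that binds gp130-type receptors and is induced by STAT3, had its only tested window in the flank at chromosome 11, 117961001 to 117962000. It stood at 100% in OX40L-JAG1 Treg, 91.4% in OX40L-JAG1 Teff, 100% in PBS Treg and 97.4% in PBS Teff, from 35 to 41 reads a library, and no comparison passed. The promoter of Socs3, with its 31 CpG and its STAT element, had no listed position in any library. The window at 117968001, within the gene, had 0 methylated of 41 reads in OX40L-JAG1 Treg, which allows up to 7.32%, 13.8% of 87 in PBS Treg and 2.03% of 148 in PBS Teff, with no listed position in OX40L-JAG1 Teff. At 117970001, on the upstream side, the level was 5.56% of 108 reads in OX40L-JAG1 Teff, 13.9% of 115 in PBS Treg and 17.1% of 129 in PBS Teff, and OX40L-JAG1 Treg had 0 methylated of 5 reads. These come from different positions in each library and are not compared.

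**Figure D5:**
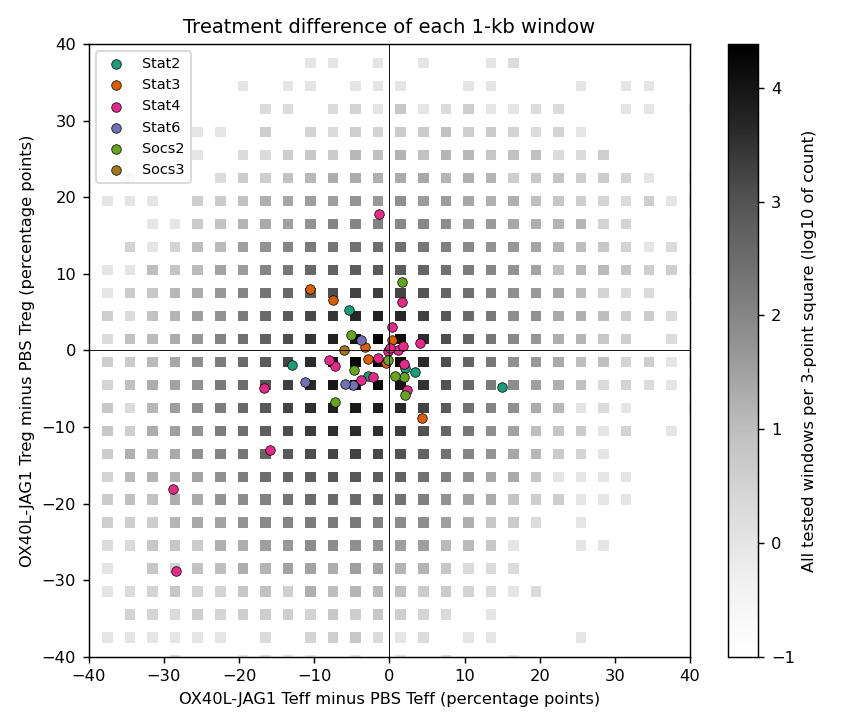
Difference of each 1-kb window between OX40L-JAG1 and PBS in percentage points, in Teff (horizontal axis) and Treg (vertical axis), for the 45 windows of the set as coloured points over all tested windows as grey squares of 3 by 3 points. Most coloured points lie near the dense centre, and the 2 Stat4 windows at -28.3 and -28.8 points in Teff lie apart at the lower left. Grey squares beyond 40 points are not drawn.

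Over positions read in all 4 libraries, no window of the set was called between cell types. The windows at 52056001 in Stat4 and 127658001 in Stat6, described above, passed only over positions read in both PBS libraries. Treg against Teff gave 0 of 45 in PBS mice by Fisher's exact test, against 0.165% of all windows lower and 0.115% higher, with 4 windows at an unadjusted p under 0.05. In OX40L-JAG1 mice it gave 0 of 45, against 0.0588% lower and 0.0547% higher, with 2 at an unadjusted p under 0.05. The Wald test of the interaction called 0 of 45, against 0.0108%, with 2 at an unadjusted p under 0.05. At such backgrounds a count of 0 among 45 windows is close to what the genome gives.

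No single position of the set was called. Over positions with at least 5 reads in both libraries, Fisher's exact test called 0 of 1558 positions of the set for OX40L-JAG1 against PBS in Teff, where 0.00772% of all positions were called lower and 0.000965% higher, and 33 had an unadjusted p under 0.05. It called 0 of 838 in Treg (background 0.000197% lower and 1.65e-05% higher, 14 at an unadjusted p under 0.05). Between cell types it called 0 of 1296 in PBS mice (0.00434% lower and 0.00339% higher, 15 unadjusted) and 0 of 957 in OX40L-JAG1 mice (0.000968% lower and 0.000417% higher, 15 unadjusted). The smallest adjusted p of the set was 0.160, at position 52096113 of Stat4 for PBS Treg against PBS Teff. That position was methylated in 64.0% of 161 reads in OX40L-JAG1 Treg, 55.8% of 199 in OX40L-JAG1 Teff, 81.6% of 174 in PBS Treg and 62.4% of 263 in PBS Teff. PBS Treg was the high library, by 19.3 points over PBS Teff and by 17.6 points over OX40L-JAG1 Treg. Its read numbers far exceed the median of 9 to 14 reads per shared position, and whether reads of other copies in the genome contribute was not tested. In the Teff treatment comparison the smallest adjusted p was 0.283, at position 52041034 in the Stat4 window described above.

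Around the set, 49 further genes of the pathway were examined, 43 of which had a tested window. Genes holding a window called lower in OX40L-JAG1 than in PBS in Teff numbered 6, and 4 held a window called higher, against 3.79% and 1.13% of all protein-coding genes. In Treg the numbers were 0 lower and 1 higher, against 0.703% and 0.265%. For Treg against Teff they were 7 lower and 2 higher in PBS mice, against 1.87% and 1.34%, and 4 lower and 0 higher in OX40L-JAG1 mice, against 0.606% and 0.655%. Genes with more tested windows have more chances of a call, so these shares are not corrected for size, and genes that share a window are each counted.

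Among the kinases, other STATs and other inhibitors, the called windows named here had PBS Teff as either the highest or the lowest library. Jak2, a kinase used by the interferon-gamma and interleukin-12 receptors, stood at 31.8% in OX40L-JAG1 Treg, 27.1% in OX40L-JAG1 Teff, 25.6% in PBS Treg and 54.3% in PBS Teff at chromosome 19, 29250001 to 29251000. A window shared by Stat5a and Stat5b, the STATs of interleukin-2 signalling that Treg depend on, stood at 36.4%, 57.6%, 48.4% and 82.0% in the same order at chromosome 11, 100859001 to 100860000. Ptprc, the CD45 phosphatase, stood at 50%, 40.7%, 43.0% and 73.6% at chromosome 1, 138127001 to 138128000. In these 3 windows OX40L-JAG1 Teff was lower than PBS Teff, at adjusted p-values of 0.0089, 0.0421 and 0.0166 in Fisher's exact test, and PBS Treg was also below PBS Teff, at 0.0398, 0.00616 and 0.0361. Both comparisons share the PBS Teff library. A further Stat5b window, at 100820001, went the other way, with 50.8%, 70.4%, 44.6% and 29.9%, and was higher in OX40L-JAG1 Teff (Fisher's exact test, adjusted p = 0.00137). Stat5b held 2 windows called higher in OX40L-JAG1 Teff than in PBS Teff, and the other one is not described here.

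Among the receptors, Ifngr1, a chain of the interferon-gamma receptor, stood at 89.8% in OX40L-JAG1 Treg, 78.9% in OX40L-JAG1 Teff, 78.3% in PBS Treg and 51.3% in PBS Teff at chromosome 10, 19588001 to 19589000, from 637, 730, 667 and 1044 reads over 10 positions. Its level was higher in OX40L-JAG1 Teff than in PBS Teff by 27.6 points (Fisher's exact test, adjusted p = 1.02e-28) and higher in PBS Treg by 26.9 points (Fisher's exact test, adjusted p = 6.64e-26), comparisons that share the PBS Teff library. Its read numbers are far above the median window, as at the Stat4 position above. Il6st, which encodes gp130, stood at 38.5%, 73.3%, 26.5% and 85.1% in that order at chromosome 13, 112471001 to 112472000. Both Treg libraries were below both Teff libraries there, and the PBS difference was -58.6 points (Fisher's exact test, adjusted p = 4.27e-07). Another Il6st window, at 112466001 to 112467000, stood at 17.5%, 16.3%, 13.9% and 47.9% in the same order and was called lower in OX40L-JAG1 Teff than in PBS Teff (Fisher's exact test, adjusted p = 0.0405). PBS Teff was the high library there, and the other 3 lay close together. Il2ra, whose product defines the sort, was lower in Treg at chromosome 2, 11648001 to 11649000, with 46.6% in OX40L-JAG1 Treg, against 95.7% in OX40L-JAG1 Teff, and 62.3% in PBS Treg, against 93.0% in PBS Teff. Il2rg was called higher in OX40L-JAG1 Treg, at 80%, against 36.5% in PBS Treg at chromosome X, 101266001 to 101267000 (Fisher's exact test, adjusted p = 0.0139). The Teff libraries lay between these, with 56.9% in OX40L-JAG1 Teff and 63.0% in PBS Teff. Il21r stood at 69.1% in PBS Treg, against 90.7% in PBS Teff. Il23r stood at 49.6% in OX40L-JAG1 Teff, against 28.6% in PBS Teff. A window shared by Ifnar2 and Il10rb stood at 24.1% in OX40L-JAG1 Treg, against 44.8% in OX40L-JAG1 Teff, and each of these 3 was called.

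Among the lineage factors that STAT4 and STAT6 act with, Tbx21 and Gata3 each held a called window. Tbx21, which encodes the Th1 factor T-bet, stood at 94.6% in OX40L-JAG1 Treg, 72.7% in OX40L-JAG1 Teff, 97.0% in PBS Treg and 96.4% in PBS Teff at chromosome 11, 97104001 to 97105000. OX40L-JAG1 Teff was the low library, with a difference of -23.6 points from PBS Teff (Fisher's exact test, adjusted p = 0.00299). Gata3, which encodes the Th2 factor, stood at 60%, 83.0%, 70.8% and 81.8% in the same order of libraries at chromosome 2, 9868001 to 9869000, and was called lower in OX40L-JAG1 Treg than in OX40L-JAG1 Teff (-23.0 points, adjusted p 6.23e-08). Isg15, an interferon target, stood at 43.8%, 54.3%, 31.2% and 28% and was called higher in OX40L-JAG1 Teff than in PBS Teff (26.4 points, adjusted p 0.0104). The list of other SOCS genes (Cish, Socs4, Socs5, Socs6, Socs7) had no called window in any comparison.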

How the data were processed

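The deposited table gives, per the file headers, for each library the count of reads and the count of methylated reads at each cytosine position and a methylation level. The level is headed as a percent, but the deposited values are a fraction from 0 to 1 equal to methylated reads over reads. Trimmomatic, Bismark and the build mm10 are named in the submitters' processing notes, and their versions, settings and any removal of duplicates are not given in the sources used here. Every nonzero count is at least 5, so a position below that is listed at 0, and listed totals (103584075 to 208402911 reads a library) are not the sequencing depth. Strands stand on separate lines, and positions are printed as deposited.

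Counts were summed over the positions shared by the 4 libraries, at 5 reads or more in each, in fixed windows of 1 kb with at least 5 such positions, without the mitochondrial genome. Each pair of libraries was compared by the two-sided Fisher's exact test per window, and the interaction by a logistic Wald test after 0.5 was added to each cell, both with Benjamini-Hochberg adjustment over the genome. A call needed an adjusted p under 0.05 and 20 points. Single positions needed 5 reads in the libraries compared. The annotation gives no exons, so exon and intron were not told apart. Python 3.11.15, numpy 2.4.6, scipy 1.17.1, pandas 2.3.3, numba 0.67.0 and matplotlib 3.10.9 were used, and the tests were tried on simulated reads. Alternatives changed the read and position minimums, the positions, the grid, the strand, the centring and the read numbers.

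The members, gene lists and tests were chosen with earlier results of these data known. For each member the text names every called window, the other window with the largest treatment difference in Teff and that with the largest cell type difference in PBS mice, with others named after their values were seen. Of the pathway lists it names genes with a called window. The lists are kinases, other STATs, other SOCS genes, other inhibitors, receptors, and partners and targets. A few genes of the pathway and marker lists are not reported here.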

Additional observations from a re-analysis of the deposited data

How the results depend on the processing

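With at least 10 reads per position, 1 of 10 tested windows of the set was called lower in OX40L-JAG1 Teff, in place of 2 of 45. The window at 52053001 could not be tested in that setting. With read numbers divided by 3, as if a molecule covered 3 positions, 0 were called in Teff and 0 in Treg, and the Stat4 window at 52041001 had an adjusted p of 0.244 in Teff and 1 in Treg by Fisher's exact test. With windows of at least 3 positions, 4 of 96 were called lower in Teff, all in Stat4, against 3041 of 750314 in the genome. With the lower-coordinate cytosine of each pair, 0 were called in Teff and 0 in Treg, and neither called Stat4 window had enough such positions to be tested. With the higher-coordinate cytosine, 3 of 21 were called lower in Teff, all in Stat4, against 511 of 174263 in the genome. In that setting 0 were called in Treg, where the window at 52041001 kept a difference of -29.6 points (Fisher's exact test, adjusted p = 0.0571). For PBS Treg against PBS Teff, 2 of 121 windows were called lower with positions read in the pair, against 1190 of 789286 in the genome. With windows moved by 500 bases, 1 of 51, in Stat6, was called lower, against 515 of 314455. No called difference reversed, whereas locus differences changed sign or came to 0 in 9 of 72 cases, all with an interval that spanned 0. In the treatment comparisons the count of calls moved by over 1.5 times in 7 of 16 cases. Pooled locus differences moved in 2 of 72 cases, to -0.22 points for Stat4 between the PBS libraries by the mean of position levels and to -3.99 points for Socs2 in Teff with at least 10 reads. Centring on the median left the calls of the set as they were, and gave 969 lower and 352 higher windows in the genome in Teff, in place of 1476 and 277. Dividing read numbers left 49 lower and 15 higher in Teff and 1 and 0 in Treg, so the calls depend on how independent neighbouring positions are taken to be. Leaving out a library was not possible with 1 per group. No paired analysis was possible because the labels give no replicate numbers and each group has 1 library. With 30 to 481 reads a window, counting error limits which differences could pass.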
